A study of Mus musculus with 12 samples.

Results

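The genes described here are the 31 genes of glycolysis and of the transcriptional response to low oxygen that were listed by symbol: 17 glycolytic enzymes, 3 transporters of glucose or lactate, 2 pyruvate dehydrogenase kinases and 9 other targets of hypoxia-inducible factor (HIF). The list goes by gene names and sets no threshold on measured values, though it was chosen with earlier results of these data known. All 31 were found among the 20738 named genes of the array, on 60 of its 62976 features. Mouse embryonic lung RNA was read on 12 arrays of 1 colour, with n = 3 in each of 4 groups, all labelled as strain C57bl/6J. Loss-of-function (LOF) lungs carried Rosa26rtTA with the transgene tet(O)solubleR2b and had doxycycline for 6 h or for 9 h. Doxycycline induces in them a secreted form of FGFR2b, which captures the ligands of this epithelial receptor outside the cell. Gain-of-function (GOF) lungs carried Rosa26rtTA with tet(O)fgf10 and had doxycycline for 9 h, which by design of the transgene induces the ligand Fgf10. Control lungs are labelled as wild-type and without treatment. The methods of the study instead describe transactivator-only littermates whose mothers were injected, collected at both times, and which description holds for these arrays was not settled. Effects of doxycycline or of the transactivator therefore cannot be told apart from those of the transgenes in a comparison with control. The transactivator is driven from the ubiquitous Rosa26 locus, so the transgenes were not limited to the epithelium. The GOF lungs are given by their labels alone.

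Glycolysis splits glucose into pyruvate, and lactate dehydrogenase turns pyruvate into lactate when it is not passed to the mitochondria. In low oxygen the prolyl hydroxylases of the EGLN family lose activity, HIF alpha subunits accumulate and, with their partner ARNT, bind a short core element in many of these genes. The fetus develops at low oxygen, and signalling through growth factor receptors is known to raise glucose use in several tissues. Whether the members followed the loss or the gain of FGFR2b signalling within hours is the question that the comparisons address.

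Upstream sequences are shown for the member that passed a test and for those HIF targets with the smallest p against control for which a stretch outside the gene could be printed. The core of the hypoxia response element is written ACGTG or GCGTG, on either strand, and matches are in capitals (CACGT and CACGC are the same core read on the other strand). The stretches are from RefSeq on GRCm38.p6, 5′ to 3′ on the strand of the gene. That of Hk2 is chr6:82774472-82774704, minus strand, 250 to 18 bases before the annotated start. That of Egln3 is chr12:54204069-54204124, minus strand, 250 to 195 bases before the start. That of Bnip3 is chr7:138909507-138909653, minus strand, 147 to 1 bases before the start.
Hk2: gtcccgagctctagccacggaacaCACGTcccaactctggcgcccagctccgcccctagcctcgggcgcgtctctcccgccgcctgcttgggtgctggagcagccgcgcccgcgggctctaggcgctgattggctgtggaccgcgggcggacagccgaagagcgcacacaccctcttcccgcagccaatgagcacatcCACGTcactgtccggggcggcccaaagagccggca
Egln3: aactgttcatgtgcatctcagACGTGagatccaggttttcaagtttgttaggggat
Bnip3: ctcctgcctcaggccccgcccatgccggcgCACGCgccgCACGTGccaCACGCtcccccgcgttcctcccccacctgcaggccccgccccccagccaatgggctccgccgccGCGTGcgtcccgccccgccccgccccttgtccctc
The Hk2 stretch held 2 matches, the Egln3 stretch 1 and the Bnip3 stretch 5, a pair of which overlap in CACGTG. In windows of 300 bases, from 250 before to 50 after the start, 26 of the 29 members with an entry held at least 1 match (89.7%), against 46.7% of 27025 genes. Some genes have more than 1 window, and counted by window 34 of 41 member windows held a match, against 43.8% of 32851. The windows of Eno2, Tpi1 and Gpi1 held 0. ACGTG alone was found in 20 of 29 (69.0%) against 21.8% of genes, GCGTG in 20 of 29 (69.0%) against 35.2%, and CACGTG in 4 of 29 (13.8%) against 8.09%. The member windows were also richer in G and C, with a median of 62.3% over 41 windows against 52.7% over 32851, and the part of base composition in the difference was not tested. HIF targets are on the list by name, so an excess of this core among members is no independent result. A match is a run of letters and no measurement of binding. The other 2 members are Slc2a3 and Ndrg1.

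All arrays share 1 distribution of log2 signal, with a median of 2.98 and a 75th percentile of 6.01, so depth in reads does not apply and precision is set by the number of arrays. The 9 FGF response genes (Etv4, Etv5, Spry1, Spry2, Spry4, Dusp6, Sftpc, Id2 and Sox9) were read as a check of the labels. The paper reports Etv4, Etv5, Sftpc, Id2 and Sox9 as lower after soluble FGFR2b. The fall of these genes in LOF lungs is therefore no independent check. On the 3 arrays of each group their mean relative to control lay between -0.86 and -0.68 in LOF 6 h, between -1.36 and -1.14 in LOF 9 h and between 0.06 and 0.53 in GOF 9 h lungs, against -0.08 to 0.13 on the control arrays. GOF 9 h arrays 2 and 3 thus lay inside the control range, and array 1 alone above it. The mean of 8 lung identity genes lay between -0.45 and 0.12 on the 9 arrays of doxycycline-treated lungs, against -0.14 to 0.18 in control, and that of 9 epithelial genes between -0.07 and 0.15, against -0.08 to 0.04 in control. Fgf10 is one of the lung identity genes, of which 0 passed in GOF 9 h lungs against control, as did 0% of all genes. The highest difference among these 8 genes there was 1.12, that of Sox9, so Fgf10 differed by less. The count of 0 does not show whether the ligand was induced. In whole lungs, fewer cells of a type and less RNA per cell cannot be told apart.

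In lungs carrying inducible soluble FGFR2b or inducible Fgf10, none of the 31 glycolysis and hypoxia genes passed the test against control used here. The single member that passed a test was Hk2, which was higher in GOF 9 h than in LOF 9 h lungs. In LOF 6 h lungs 0 of 31 members passed against control (limma, adjusted p below 0.05), where 0.0723% of all genes passed. Egln3 alone had an unadjusted p below 0.05, against 9.36% of all genes, and the arrays of the groups did not overlap in 2 members (6.45%), against 16.4% of all genes. In LOF 9 h lungs 0 of 31 passed against control, where again 0.0723% of all genes passed. Hk2 and Eno2 had an unadjusted p below 0.05, against 7.92% of all genes, and the groups did not overlap in 5 members (16.1%), against 15.4%. In GOF 9 h lungs 0 of 31 passed against control, as did 0% of all genes. There 0 members had an unadjusted p below 0.05, against 5.15% of all genes, and 0 members did not overlap, against 9.42%. Without GOF 9 h array 2, 6 members had an unadjusted p below 0.05 in this comparison, and 0 members and 0 genes of the whole array passed. Without GOF 9 h array 1 the count at the unadjusted mark was 0, and without GOF 9 h array 3 it was 2. The share of all genes at that mark was not counted in these fits, so the 6 cannot be read as an excess. With the trend and robust settings of limma, Hk2 was called in LOF 9 h lungs against control, and 0 members in the comparisons of LOF 6 h and GOF 9 h lungs.

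Between the induced groups, 0 of 31 members passed in LOF 9 h against LOF 6 h lungs, where 0.0627% of all genes passed. Hk2 and Eno2 had an unadjusted p below 0.05 there, against 10.2% of all genes, and 4 members (12.9%) did not overlap, against 17.6%. In GOF 9 h against LOF 9 h lungs 1 of 31 passed, against 0.28% of all genes. Hk2 and Ddit4 had an unadjusted p below 0.05, against 11.9%, and 6 members (19.4%) did not overlap, against 17.8%. The shares of members past these marks thus stood near or under those of all genes in most comparisons. The median log2 difference over the members relative to control was 0.02 for LOF 6 h, -0.00 for LOF 9 h and 0.09 for GOF 9 h lungs, and over all genes it was 0.02, -0.00 and 0.00. The 3 comparisons share their control arrays. The 95% interval of the difference lay within 1 log2 unit of 0 for 27 members with LOF 6 h, 25 with LOF 9 h and 26 with GOF 9 h lungs. It lay within 0.5 log2 units of 0 for 13, 11 and 15 members in the same order of groups.

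**Figure D1:**
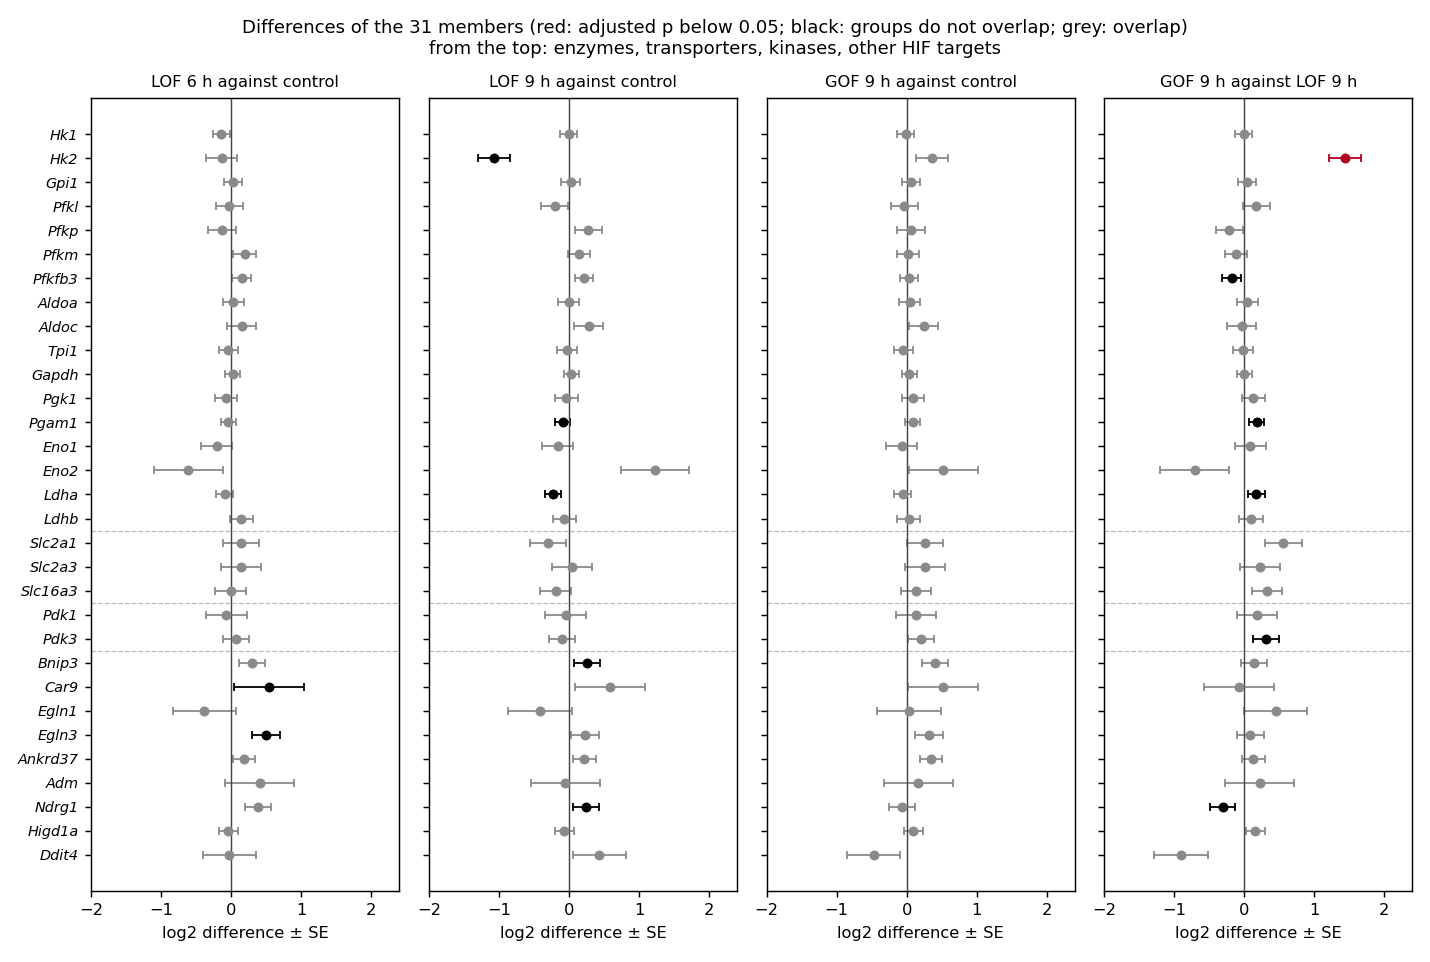
Log2 difference ± standard error (x axis) of each of the 31 members (y axis, grouped by role) in 4 comparisons, with n = 3 arrays per group. Hk2 in GOF 9 h against LOF 9 h lungs is the one red point, and most other members lie close to 0 in every panel.

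Hk2 encodes hexokinase 2, the inducible hexokinase that traps glucose in the cell as glucose 6-phosphate. Its log2 signal was 8.57, 8.43 and 8.43 on the LOF 6 h arrays, 7.76, 7.58 and 7.30 on the LOF 9 h arrays, and 9.14, 8.44 and 9.36 on the GOF 9 h arrays, against 8.54, 8.80 and 8.50 in control. All 3 LOF 9 h arrays lay below every other array, and the GOF 9 h arrays reached both above and below the control arrays. GOF 9 h lungs averaged 8.98 ± 0.48 and LOF 9 h lungs 7.55 ± 0.23 (SD, n = 3 arrays each), a difference of 1.44 ± 0.23 (SE) or 2.71-fold, which passed (limma, adjusted p = 0.0376). Against control the LOF 9 h lungs differed by -1.07 ± 0.23, a fold of 0.476, which did not pass (limma, adjusted p = 0.213). The paper, which ranked genes by p-value, lists Hk2 among its top genes that were lower 9 h after doxycycline. The members were chosen with earlier results of these data known, so the Hk2 values are no independent support for that listing. LOF 6 h lungs were -0.14 ± 0.23 from control (adjusted p = 0.897) and GOF 9 h lungs 0.37 ± 0.23 (adjusted p = 0.966; 0.18 without GOF 9 h array 3 and 0.64 without GOF 9 h array 2), and LOF 9 h lungs stood -0.93 ± 0.23 from LOF 6 h lungs (adjusted p = 0.198). The comparisons of LOF 9 h lungs with the other groups share the same LOF 9 h arrays. The call between GOF 9 h and LOF 9 h lungs held with 1 of the 12 arrays left out, GOF 9 h array 2 (1.71, adjusted p = 0.00983), and was lost with any of the other 11 left out, where the difference lay between 1.25 and 1.54 and the adjusted p reached 0.153. The call was also lost with only the groups compared in the fit (adjusted p = 0.236).

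**Figure D2:**
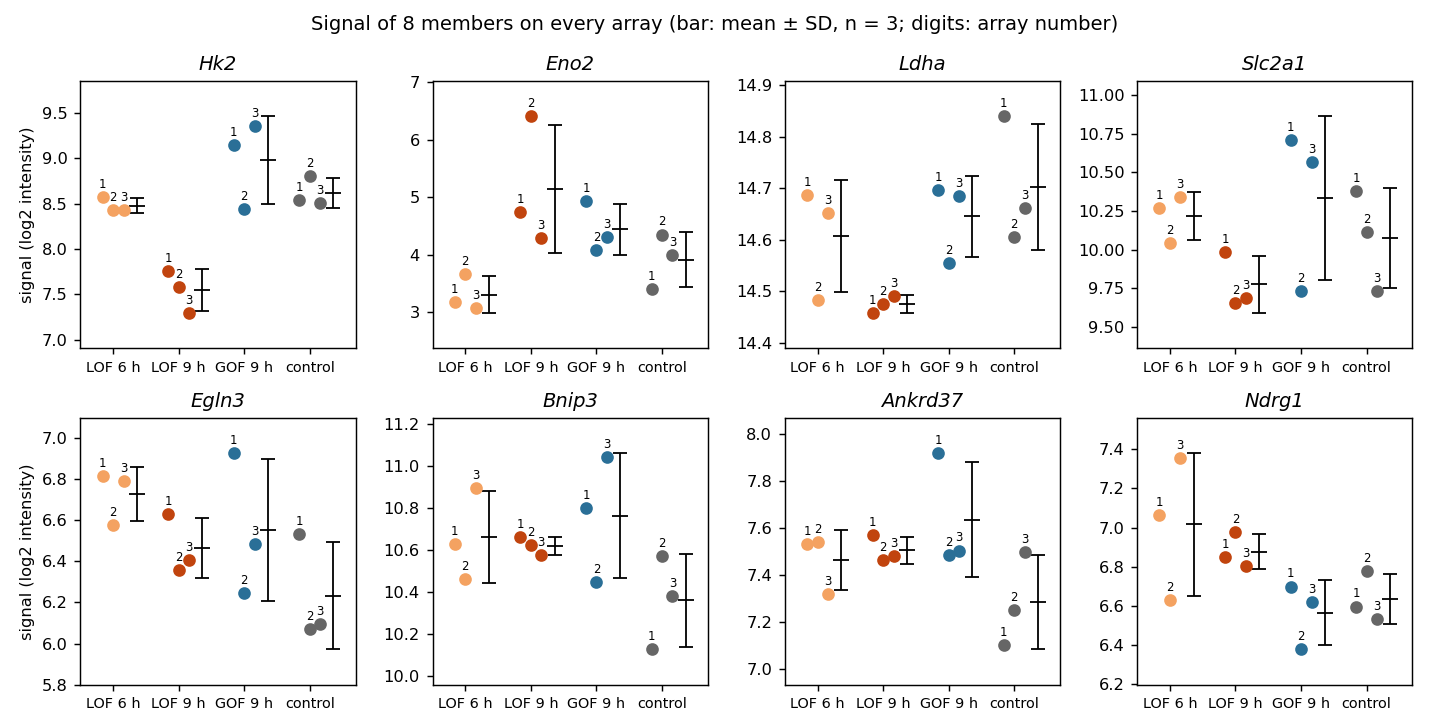
Log2 signal (y axis) of 8 members on each array of the 4 groups (x axis), with the mean ± SD beside the points. The LOF 9 h arrays of Hk2 lie apart from all others, and in the other 7 genes at least some groups interleave.

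Hk1, the constitutive hexokinase, stood beside it with no such difference on its brightest feature. It read 13.44, 13.78 and 13.60 in LOF 6 h, 13.84, 13.72 and 13.67 in LOF 9 h and 13.77, 13.76 and 13.68 in GOF 9 h lungs, against 13.77, 13.73 and 13.75 in control. All treated groups overlapped control, and the differences were -0.14 ± 0.12, -0.00 ± 0.12 and -0.01 ± 0.12 in that order of groups. Its 3 features disagreed: in LOF 9 h lungs they differed from control by between -0.17 and 0.45. The highest of these differences came from the second brightest feature. That feature read 10.14, 9.91 and 9.78 in LOF 9 h lungs against 9.55, 9.58 and 9.36 in control, with no overlap, as in 15.4% of all genes. Gpi1, which isomerises glucose 6-phosphate, differed from control by 0.02 to 0.06 in the 3 treated groups.

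Phosphofructokinase commits sugar to glycolysis, and its muscle-type subunit gene Pfkm read 9.20, 9.43 and 9.43 in LOF 6 h, 9.12, 9.39 and 9.41 in LOF 9 h and 9.03, 9.08 and 9.44 in GOF 9 h lungs, against 8.99, 9.31 and 9.19 in control. The groups overlapped throughout. Pfkm has 10 features, and all 10 lay above control in LOF 6 h lungs (0.12 to 0.40), while all 10 were lower in GOF 9 h than in LOF 9 h lungs (-0.24 to -0.07). These features read 1 gene on the same arrays and are no replicates, and Pfkm did not pass in LOF 6 h lungs (0.19 ± 0.16, adjusted p = 0.772). The platelet-type subunit gene Pfkp was dim and read 5.07, 4.70 and 4.88 in LOF 6 h, 5.35, 5.03 and 5.49 in LOF 9 h and 5.10, 4.74 and 5.38 in GOF 9 h lungs, against 4.96, 4.89 and 5.18 in control. It differed by 0.28 ± 0.19 in LOF 9 h lungs against control (adjusted p = 0.789) and by 0.41 ± 0.19 against LOF 6 h lungs (adjusted p = 0.520), with overlap in both. The liver-type subunit gene Pfkl differed from control by -0.20 to -0.03. Pfkfb3, which makes the activator fructose 2,6-bisphosphate, read 9.23, 9.46 and 9.31 in LOF 6 h, 9.39, 9.50 and 9.31 in LOF 9 h and 9.10, 9.27 and 9.28 in GOF 9 h lungs, against 9.21, 9.33 and 9.01 in control. Its GOF 9 h arrays all lay below the LOF 9 h arrays, by -0.18 ± 0.13 (adjusted p = 0.658).

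The enzymes of the lower part of the pathway stayed within narrow limits, with Eno2 as the exception. Aldoa, Tpi1, Gapdh, Pgk1, Pgam1 and Eno1, which act between fructose 1,6-bisphosphate and phosphoenolpyruvate, differed from control by -0.20 to 0.09 in the 3 treated groups. For Gapdh, often used as a reference transcript, the 95% interval ran from -0.21 to 0.26 in LOF 6 h, -0.20 to 0.27 in LOF 9 h and -0.20 to 0.27 in GOF 9 h lungs. Its 8 features differed from control by -0.21 to 0.07. Aldoc, a further aldolase, read 8.23, 8.33 and 8.59 in LOF 6 h, 8.41, 8.52 and 8.61 in LOF 9 h and 8.38, 8.56 and 8.48 in GOF 9 h lungs, against 7.87, 8.74 and 8.09 in control. The control arrays of Aldoc spanned more than any treated group, and its differences were 0.15, 0.28 and 0.24 (SE 0.21 each).

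Eno2, the enolase of neurons and neuroendocrine cells, was among the dim members. It read 3.18, 3.67 and 3.07 in LOF 6 h, 4.74, 6.41 and 4.29 in LOF 9 h and 4.94, 4.08 and 4.30 in GOF 9 h lungs, against 3.41, 4.35 and 3.99 in control. LOF 9 h array 2 stood above every other array, while LOF 9 h array 3 lay below the highest control array. Eno2 averaged 5.15 ± 1.12 in LOF 9 h and 3.92 ± 0.48 in control lungs (SD), a difference of 1.23 ± 0.49 that did not pass (limma, adjusted p = 0.554) and was 0.60 without LOF 9 h array 2. Against LOF 6 h lungs, whose arrays it did not overlap, the difference was 1.84 ± 0.49 (adjusted p = 0.231). A list of 8 neural genes had array means between -0.10 and 0.08 relative to control in LOF 9 h and between 0.40 and 1.11 in LOF 6 h lungs, and its part in the Eno2 values was not tested.

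The lactate dehydrogenase subunit gene Ldha read 14.69, 14.48 and 14.65 in LOF 6 h, 14.46, 14.48 and 14.49 in LOF 9 h and 14.70, 14.55 and 14.69 in GOF 9 h lungs, against 14.84, 14.61 and 14.66 in control. The LOF 9 h arrays lay below every control and GOF 9 h array, though by little: the difference was -0.23 ± 0.12 against control (adjusted p = 0.698), and GOF 9 h exceeded LOF 9 h lungs by 0.17 ± 0.12 (adjusted p = 0.640). All 3 Ldha features were below control in LOF 9 h lungs, by values from -0.23 to -0.15. Pgam1 behaved alike in rank, with LOF 9 h arrays below those of control (-0.09 ± 0.11) and of GOF 9 h lungs. Ldhb, the subunit gene favouring pyruvate formation, was lower on all LOF 9 h than on all LOF 6 h arrays (-0.21 ± 0.16, adjusted p = 0.723).

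Of the transporters, Slc2a1, which encodes the glucose transporter GLUT1, read 10.27, 10.04 and 10.34 in LOF 6 h, 9.99, 9.66 and 9.68 in LOF 9 h and 10.71, 9.73 and 10.57 in GOF 9 h lungs, against 10.38, 10.11 and 9.73 in control. Its LOF 9 h arrays all lay below the LOF 6 h arrays, by -0.44 ± 0.26 (adjusted p = 0.614), and overlapped control. GOF 9 h exceeded LOF 9 h lungs by 0.56 ± 0.26 (limma, adjusted p = 0.439), with GOF 9 h array 2 inside the LOF 9 h range. Slc2a3, for the transporter GLUT3, and Slc16a3, for the lactate exporter MCT4, differed from control by -0.19 to 0.27 in the 3 treated groups. The pyruvate dehydrogenase kinases Pdk1 and Pdk3, which restrain the entry of pyruvate into the citric acid cycle, differed from control by -0.10 to 0.21. Pdk3 was higher on all GOF 9 h than on all LOF 9 h arrays (0.31 ± 0.18, adjusted p = 0.564).

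Among the other HIF targets, Egln3 is a prolyl hydroxylase that marks HIF alpha for destruction and is itself induced by HIF. It read 6.81, 6.57 and 6.79 in LOF 6 h, 6.63, 6.36 and 6.40 in LOF 9 h and 6.93, 6.25 and 6.48 in GOF 9 h lungs, against 6.53, 6.07 and 6.10 in control. The LOF 6 h arrays all lay above control, by 0.49 ± 0.20, which did not pass (limma, adjusted p = 0.475, unadjusted p = 0.0310), and its second feature differed by 0.14. In LOF 9 h and GOF 9 h lungs Egln3 overlapped control, with differences of 0.23 ± 0.20 and 0.32 ± 0.20. Egln1, the hydroxylase that is the main oxygen sensor in many cells, was dim and differed by -0.41 to 0.03 with a SE of 0.45.

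Bnip3, a mitochondrial inducer of autophagy, read 10.63, 10.46 and 10.89 in LOF 6 h, 10.66, 10.63 and 10.58 in LOF 9 h and 10.80, 10.45 and 11.04 in GOF 9 h lungs, against 10.13, 10.57 and 10.38 in control. The LOF 9 h arrays lay just above all control arrays and the other groups overlapped them. The differences were 0.30 ± 0.18, 0.26 ± 0.18 and 0.40 ± 0.18 (adjusted p = 0.670, 0.793 and 0.957, limma), and all 3 features of Bnip3 were above control in each group. The 3 differences share the control arrays, among which array 1 was the lowest. Ankrd37, a gene with ankyrin repeats induced in hypoxia, read 7.53, 7.54 and 7.32 in LOF 6 h, 7.57, 7.47 and 7.48 in LOF 9 h and 7.92, 7.48 and 7.50 in GOF 9 h lungs, against 7.10, 7.25 and 7.50 in control. Control array 3 lay above the lowest array of each treated group, and the differences were 0.18, 0.22 and 0.35 (SE 0.16 each, adjusted p = 0.785, 0.795 and 0.955).

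Ndrg1, a stress-responsive gene, read 7.06, 6.63 and 7.36 in LOF 6 h, 6.85, 6.98 and 6.80 in LOF 9 h and 6.70, 6.38 and 6.62 in GOF 9 h lungs, against 6.60, 6.78 and 6.53 in control. The LOF 9 h arrays lay above every control and GOF 9 h array, by 0.24 ± 0.18 against control (adjusted p = 0.818), and GOF 9 h lungs stood at -0.31 ± 0.18 from them (adjusted p = 0.563). LOF 6 h lungs differed from control by 0.38 ± 0.18 (adjusted p = 0.571) with overlap. Ddit4, an inhibitor of mTORC1 induced by several stresses, read 10.97, 11.81 and 11.00 in LOF 6 h, 11.50, 12.28 and 11.38 in LOF 9 h and 10.22, 10.57 and 11.65 in GOF 9 h lungs, against 11.36, 11.44 and 11.06 in control. GOF 9 h array 3 lay above 2 of the LOF 9 h arrays, so the groups overlapped although the means differed by -0.91 ± 0.38 (limma, adjusted p = 0.384, unadjusted p = 0.0389).

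Of the remaining HIF targets, Car9, a carbonic anhydrase of hypoxic cells, was dim. It read 3.94, 4.26 and 4.27 in LOF 6 h and 3.50, 4.13 and 4.98 in LOF 9 h lungs. In GOF 9 h lungs it read 4.67, 2.87 and 4.86, against 3.49, 3.48 and 3.89 in control. The LOF 6 h arrays all lay above control, with a difference of 0.54 ± 0.50 (limma, adjusted p = 0.798), and the other groups overlapped control. The means of the 3 treated groups were alike, at 4.16, 4.20 and 4.13 in that order, against 3.62 in control. Adm, for the vasodilator peptide adrenomedullin, was dim too and differed from control by -0.06 to 0.41 with a SE of 0.49. Higd1a, a mitochondrial gene, differed by -0.06 to 0.09. The dim members Adm, Car9, Egln1, Eno2 and Pfkp had mean signals below the 75th percentile of the array, and changes in them would be harder to see than in the other 26.

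**Figure D3:**
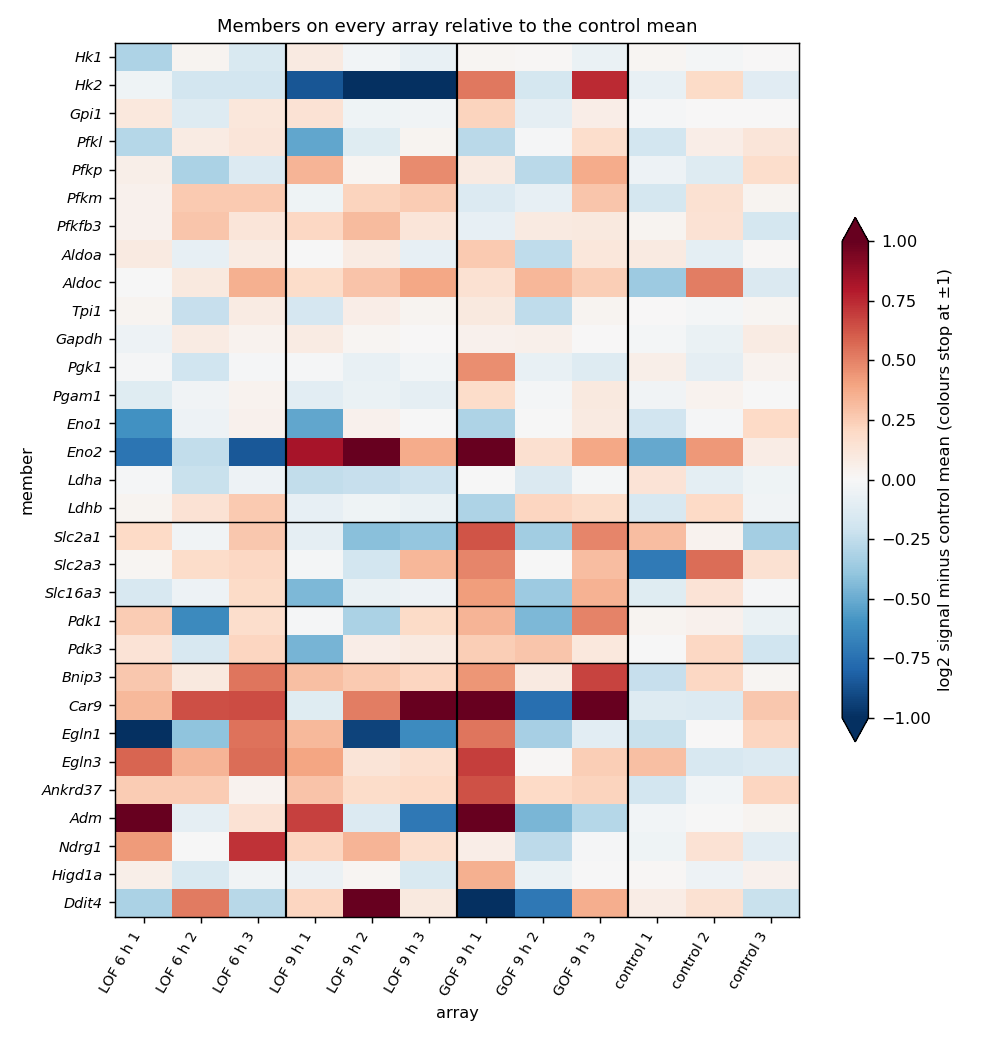
Log2 signal of each member (rows, by role) on each array (columns) minus the control mean of that member, with colours that stop at 1 log2 unit. Hk2 is blue on the 3 LOF 9 h arrays, and GOF 9 h arrays 1 and 3 are redder than GOF 9 h array 2 in most transporters and HIF targets, Ddit4 being an exception for array 1.

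The GOF 9 h arrays differed among themselves more than other groups did in these genes. Over the members, the median SD within a group was 0.252 for GOF 9 h lungs, against 0.167 with LOF 6 h, 0.145 with LOF 9 h and 0.163 with control lungs. Over all genes it was 0.286 in GOF 9 h lungs and 0.254 to 0.261 in the others. GOF 9 h array 2 was the lowest of its group in 20 of 31 members (64.5%), against 33.5% of all genes. Among the 14 transporters, kinases and other HIF targets it was the lowest in 12 (85.7%), while among the 17 enzymes it was the lowest in 8. This count was made after the values were seen. The mean of the 9 other HIF targets relative to control was 0.44, -0.25 and 0.26 on GOF 9 h arrays 1, 2 and 3, and that of the 3 transporters was 0.51, -0.24 and 0.38. On the same arrays the FGF response genes had means of 0.53, 0.09 and 0.06, the epithelial genes 0.15, -0.07 and 0.11, and the heart genes -0.93, -1.35 and -0.54. Their part in the spread of the members was not tested.

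In LOF 9 h lungs the 9 other HIF targets had means of 0.25, 0.15 and 0.08 and in LOF 6 h lungs of 0.16, 0.13 and 0.32, against -0.05, 0.01 and 0.04 on the control arrays. The 17 enzymes had means of -0.11, -0.04 and 0.01 in LOF 6 h and -0.04, 0.11 and -0.01 in LOF 9 h lungs, against -0.09, 0.07 and 0.01 in control. LOF 6 h array 3 was the highest of its group in 16 of 31 members (51.6%), against 32.7% of all genes. In GOF 9 h lungs 24 of 31 members had a difference above 0 (77.4%), against 50.4% of all genes. The median difference there was 0.18 without GOF 9 h array 2 and 0.04 without GOF 9 h array 1.

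**Figure D4:**
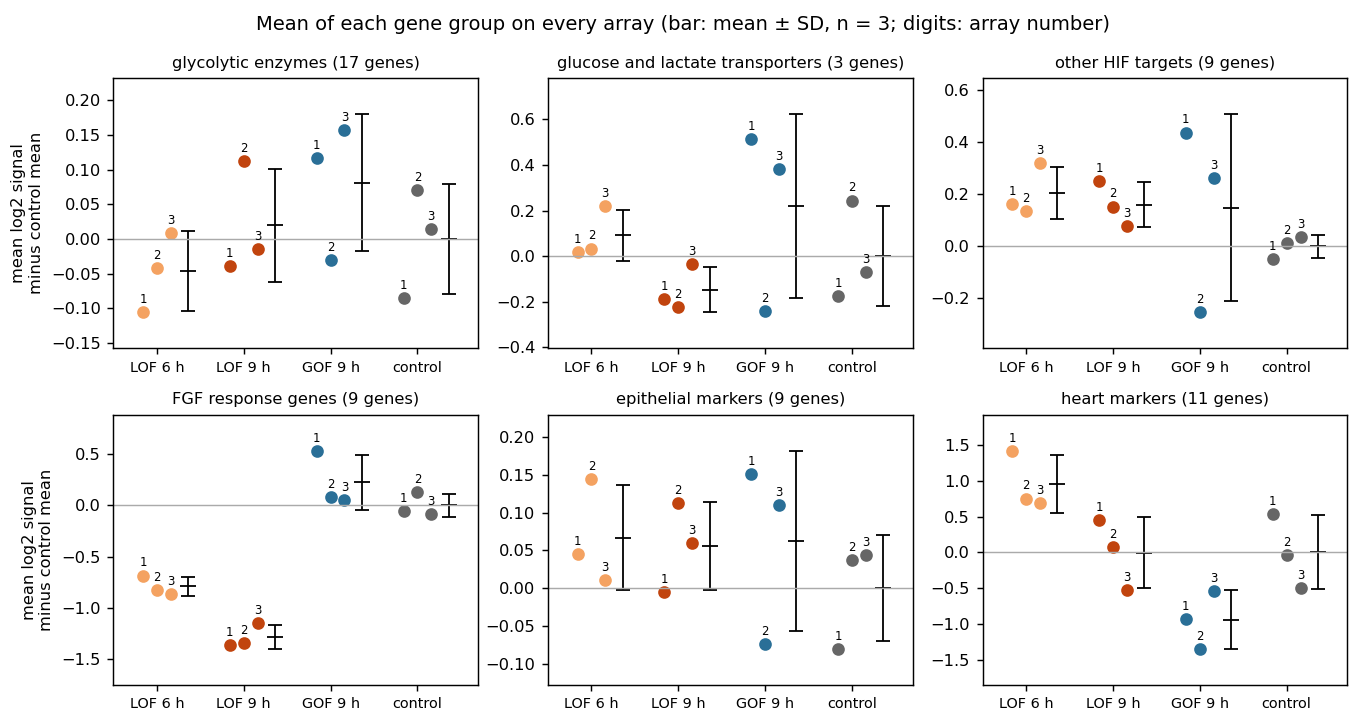
Mean log2 signal relative to control (y axis) of 3 groups of members and of 3 lists of other genes on each array of the 4 groups (x axis), with the mean ± SD beside the points. GOF 9 h array 2 lies below the other GOF 9 h arrays among transporters and other HIF targets, while the FGF response genes separate both LOF groups from control.

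For 11 members the array held more than 1 feature, which allowed the brightest feature to be set beside the others. The features of Gpi1 and Gapdh stayed between -0.21 and 0.07 of control in each treated group. The direction of a difference depended on the feature for Hk1, Pfkfb3, Tpi1, Gapdh and Slc16a3 in LOF 6 h lungs, for Hk1, Gpi1, Pfkm, Tpi1, Gapdh and Slc16a3 in LOF 9 h lungs, and for Hk1, Pfkm, Pfkfb3, Gapdh, Ldha and Egln3 in GOF 9 h lungs. Egln3 gave 0.32 and -0.25 on its features in GOF 9 h lungs.

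**Figure D5:**
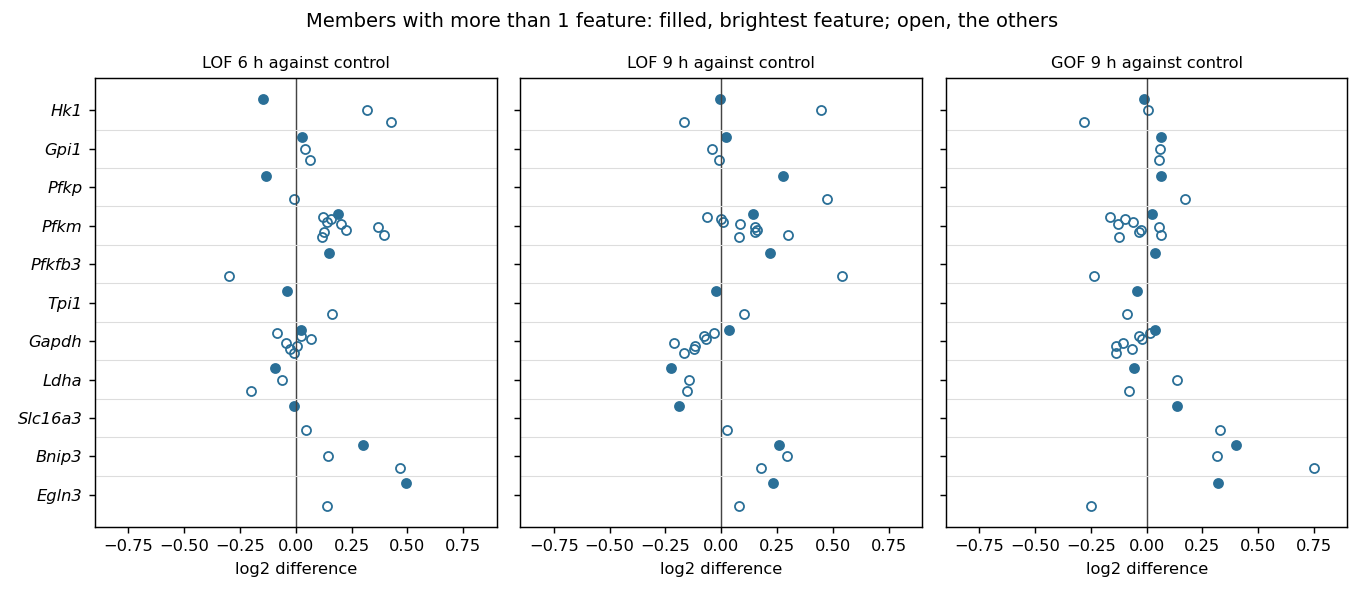
Log2 difference from control (x axis) of every feature of the 11 members with more than 1 feature (y axis) in each treated group. Filled points are the brightest features and open points the others, and those of Hk1 reach from -0.17 to 0.45 in LOF 9 h lungs.

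Genes of the neighbouring pathways were read from listed symbols beside the members. Of 12 regulators of HIF, 21 further HIF targets, 25 further genes of glycolysis, gluconeogenesis and sugar transport, 7 of the pentose phosphate pathway and 26 of pyruvate dehydrogenase and the citric acid cycle, 0 passed in any comparison with control. At an unadjusted p below 0.05, reached by 9.36% of all genes with LOF 6 h, 7.92% with LOF 9 h and 5.15% with GOF 9 h lungs, the LOF 6 h lungs had 5 further HIF targets (1 higher and 4 lower) and 2 further glycolysis genes (1 higher and 1 lower), and LOF 9 h lungs had 3 further HIF targets (all lower), 3 further glycolysis genes (1 higher and 2 lower) and 1 gene of each of the last 2 lists (both lower). GOF 9 h lungs had 1 regulator (lower).

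Tfrc, for the transferrin receptor that takes up iron, read 7.47, 6.99 and 7.13 in LOF 6 h, 6.46, 6.82 and 6.42 in LOF 9 h and 8.24, 7.76 and 7.51 in GOF 9 h lungs, against 7.47, 7.50 and 7.54 in control. Its LOF 9 h arrays lay below all others, and it was the single gene of these lists that passed, being higher in GOF 9 h than in LOF 9 h lungs by 1.27 ± 0.20 (limma, adjusted p = 0.0416), while the average over its features gave 0.80 (adjusted p = 0.0840). Vegfa, the vascular growth factor and a classic HIF target, stood at -0.90 ± 0.27 from control with LOF 6 h (adjusted p = 0.323) and at -0.61 ± 0.27 with LOF 9 h lungs (adjusted p = 0.624), and its arrays overlapped control in neither. Pfkfb4, a relative of Pfkfb3, differed by -0.91 ± 0.28 in LOF 6 h lungs (adjusted p = 0.330). The values of Vegfa and Pfkfb4 were thus opposite in sign to that of Egln3 in LOF 6 h lungs, but their list was split. Of its 21 genes, 11 lay above control there and 10 below, with a median of 0.02 and a highest difference of 1.14.

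Hkdc1, a further hexokinase gene, stood at 1.26 ± 0.41 from control with LOF 6 h (adjusted p = 0.361) and at 1.24 ± 0.41 with LOF 9 h lungs (adjusted p = 0.458), and at -1.54 ± 0.41 in GOF 9 h against LOF 9 h lungs (limma, adjusted p = 0.152). It read 7.75, 7.53 and 7.12 in LOF 9 h and 4.77, 6.45 and 6.57 in GOF 9 h lungs, against 6.27, 6.04 and 6.37 in control. Its GOF 9 h arrays 2 and 3 lay above every control array and array 1 below them, and without array 1 the difference of GOF 9 h from LOF 9 h lungs was -0.96 and that from control 0.28. The glucokinase Adpgk differed by -0.62 ± 0.18 in LOF 6 h lungs (adjusted p = 0.303), and Tigar, a phosphatase that lowers fructose 2,6-bisphosphate, by -0.63 ± 0.20 in LOF 9 h lungs (adjusted p = 0.437). Among the regulators of HIF, the ubiquitin ligase gene Siah2 differed by -0.50 ± 0.20 in GOF 9 h lungs (adjusted p = 0.955), the HIF inhibitor gene Cited2 by -0.35 ± 0.17 in LOF 6 h lungs (adjusted p = 0.571) and Hif3a by 0.29 ± 0.15 there (adjusted p = 0.599). Idh3a, of the citric acid cycle, differed by -0.43 ± 0.13 in LOF 9 h lungs (adjusted p = 0.418) and Sdha and Mdh2 by 0.20 ± 0.11 and 0.19 ± 0.14 in LOF 6 h lungs (adjusted p = 0.610 and 0.722). In the list of the pentose phosphate pathway Rpia differed by -0.37 ± 0.14 in LOF 9 h lungs (adjusted p = 0.514), Pgls by 0.40 ± 0.26 in LOF 6 h lungs (adjusted p = 0.686) and H6pd by 0.27 ± 0.22 in LOF 9 h lungs (adjusted p = 0.839).

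Lists of other cell types also differed between the groups in their means, and 0 of the heart, erythroid, mesenchymal, endothelial and macrophage genes passed in GOF 9 h against LOF 9 h lungs. The mean of 11 heart genes relative to control was 1.42, 0.75 and 0.69 on the LOF 6 h arrays, 0.45, 0.07 and -0.53 on the LOF 9 h arrays and -0.93, -1.35 and -0.54 on the GOF 9 h arrays, against 0.53, -0.03 and -0.50 in control. With this mean as a covariate the Hk2 difference of GOF 9 h from LOF 9 h lungs was 1.82 ± 0.25 (limma, adjusted p = 0.0751), and that of LOF 9 h from LOF 6 h lungs was -0.54 ± 0.26. Against control, Hk2 then stood at -0.53 ± 0.26 in LOF 6 h (adjusted p = 0.645) and 0.75 ± 0.25 in GOF 9 h lungs (adjusted p = 0.802). In LOF 9 h lungs it stood at -1.07 ± 0.19 from control in the same fit (limma, adjusted p = 0.161). The mean of 3 Y-linked genes was also uneven between the groups. It was -0.54, 1.18 and 1.61 in LOF 6 h and -0.87, -0.52 and -0.53 in LOF 9 h lungs. In GOF 9 h lungs it was 2.56, -0.02 and -0.46, against -0.65, 1.36 and -0.71 in control. With this mean as a covariate, the Hk2 difference of GOF 9 h from LOF 9 h lungs was 1.39 ± 0.26 (limma, adjusted p = 0.164). The 8 erythroid genes had means of 0.66, 0.75 and 0.32 in LOF 6 h, -0.28, -0.16 and -0.06 in LOF 9 h and 0.09, -0.06 and 0.11 in GOF 9 h lungs, against -0.40, 0.56 and -0.15 in control. In GOF 9 h against LOF 9 h lungs, an unadjusted p below 0.05 was reached by 6 of 9 mesenchymal genes (all lower, median of the list -0.34), 4 of 9 endothelial genes (all lower, median -0.39) and 3 of 9 macrophage genes (all lower, median -0.35), against 11.9% of all genes. At the same mark 6 of the 11 heart genes were lower and 1 higher (median -1.10), and 1 of the 8 erythroid genes was higher (median 0.21). The array means of the mesenchymal genes were -0.28, -0.30 and -0.04 in GOF 9 h and 0.11, 0.30 and 0.38 in LOF 9 h lungs, against 0.08, -0.03 and -0.06 in control. The part of these lists in the values of the members was not tested.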

How the data were processed

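The authors deposited 1 log2 intensity for each feature and array. Per their methods, they corrected spot signals of one-colour Cy3 arrays for background with NormExp and an offset of 1, took logarithms and quantile-normalized them. The base of the logarithm is taken as 2, since it is not given in the sources used here. Features were named by accession, then symbol, with RefSeq tables, and each gene was read on its brightest feature, with no filter on dim features. In limma 3.58.1 (R 4.3.3), a mean per group was fitted over the 12 arrays, with moderated two-sided tests and Benjamini-Hochberg adjustment over 20738 genes within a comparison, at a threshold of 0.05. The residual degrees of freedom were 8, the prior added 2.27, and the median standard error of a difference was 0.265. Groups came from the sample labels. The design text calls the replicates independent, and the p-values measure the spread between these arrays. Slides and scans are not used here, so batches of that kind were not tested. The members and lists were chosen with earlier results of these data known, so lists are described by counts and medians with no test. Values on every array are given for the called member, for up to 6 members with the smallest p in each comparison with control and up to 4 in the others, and for Car9 and Tfrc, picked once their values had been read. Hkdc1 was picked in the same way, and its values are given without those of LOF 6 h lungs. Of each neighbouring list, called genes and the 3 with the smallest p against control are named. Alternatives were other normalizations, features, filters and variance models, fits of the compared groups alone, covariates, the replicate number as a block and each array left out. The fit was tested on simulated data.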

Additional observations from a re-analysis of the deposited data

Results flagged for a closer look

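The effect on Hk2 differed between GOF 9 h and LOF 9 h lungs, each against the same control arrays: the difference of the effects was 1.44 ± 0.23 on the log2 scale (limma, adjusted p = 0.0376), higher on all 3 GOF 9 h than on all 3 LOF 9 h arrays. Since the control arrays cancel, this is the direct comparison of the 2 groups. With GOF 9 h array 2 left out the difference was 1.71 (adjusted p = 0.00983), and with any of the other 11 arrays left out the adjusted p was above 0.05.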

How the results depend on the processing

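The count of members called stayed at 0 for both LOF 6 h and GOF 9 h lungs against control under all 24 alternatives. With trend and robust settings it was 1 in LOF 9 h lungs against control (Hk2, adjusted p = 0.00493) and 1 against LOF 6 h lungs (Hk2, adjusted p = 0.0129). In GOF 9 h against LOF 9 h lungs it was 0 with only the groups compared, with the replicate block and with the Y-linked or heart covariate, and ranged from 0 to 1 with 1 array left out. There the median difference of members ranged from -0.0047 without GOF 9 h array 1 to 0.21 without array 2. The call of Tfrc was lost under 16 of 24 alternatives, with adjusted p up to 0.302. Single members kept their sign and call, or changed sign by less than 1 SE, in 3648 of 3695 repeats. The sign changed in 211 of these repeats, and at least 1 time for 89 of the 155 pairs of a member and a comparison. Where the reported difference was 0.2 or more in size, it changed in 12 of 1255 repeats. Genes called over the whole array varied from 11 to 500 in GOF 9 h against LOF 9 h lungs (58 in the reported fit), from 4 to 104 in LOF 9 h (15) and from 1 to 122 in LOF 6 h lungs against control (15), from 0 to 3 in GOF 9 h lungs against control (0) and from 0 to 161 in LOF 9 h against LOF 6 h lungs (13). The cause was not tested.

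The replicate numbers of the labels were not taken as a pairing, since no label ties them to a litter, batch or day and most pairs were below 0.1: arrays with the same number had correlations of their deviations between -0.00 and 0.10 over 18 pairs. The 6 pairs of arrays numbered 1 lay highest, between 0.084 and 0.103, and 9 of 12 arrays correlated best with their own number, a hint from the data alone. With the replicate number as a block, 22 genes were called in GOF 9 h against LOF 9 h lungs, the difference of Hk2 stayed at 1.44 with an adjusted p of 0.0836, and 0 members were called in any comparison. Signal over background limits the 5 dim members most, and with 3 arrays a group the median SE of a difference over all genes was 0.265.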
